A study of Mus musculus with 19 samples.

Results

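The 9 genes described here encode the amyloid precursor protein (*App*) and enzymes that cut it or degrade the peptide made from it. They are *Bace1*, *Adam10*, the γ-secretase subunits *Psen2*, *Ncstn*, *Aph1a* and *Psenen*, and the peptidases *Ide* and *Mme*. They were taken by gene symbol from 60567 listed genes, of which 25896 carry a symbol. The choice was made with earlier results of these data known. *Bace1* stood on several entries and the one with the highest total level was used. In GFP+ astrocytes *App* was the one gene of the 9 that met the thresholds between groups. It was higher in astrocytes of APP mice that received GFP alone than in WT astrocytes, and lower when SOCS3 was also expressed. Of all genes tested, 2.23% were called in the first of these comparisons and 5.70% in the second. The first call of *App* was lost without APP-GFP replicate 2, 3 or 4. Neither difference held after adjustment over all genes tested, and levels overlapped between the groups. In WT-GFP mice, *App* and *Mme* were lower in GFP+ astrocytes than in GFP- cells, and *Psenen* was higher, where 42.8% of all genes tested were called.

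APP is a membrane protein that is cut along competing routes. The β-secretase BACE1 followed by γ-secretase releases the amyloid-β peptide (Aβ), whereas an α-secretase such as ADAM10 cuts inside the Aβ sequence and precludes its formation. γ-Secretase is a complex of a presenilin, which carries the catalytic site, with nicastrin, an APH-1 protein and the presenilin enhancer PEN-2. Released Aβ is degraded by peptidases, among them the insulin-degrading enzyme (IDE) and neprilysin, the product of *Mme*. Neurons are regarded as the main source of Aβ in the brain, and astrocytes take part in its clearance.

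RNA was sequenced from 19 samples of cells sorted by GFP fluorescence from the hippocampi of male C57bl6 mice, 9 month-old. WT-GFP mice (7 samples of GFP+ astrocytes) were littermates without transgenes. APP mice are APP/PS1dE9 transgenics, which carry a chimeric mouse/human *App* with the Swedish mutations and a further transgene. Both are driven by a prion protein promoter, which is not restricted to astrocytes. APP-GFP mice (4 samples) and WT-GFP mice received an adeno-associated viral vector encoding GFP under gfaABC1D, a promoter derived from that of *Gfap*. APP-SOCS3 mice (5 samples) also received a vector encoding murine SOCS3, the endogenous inhibitor of the JAK2-STAT3 pathway. GFP- cells (3 samples) came from WT-GFP mice only. The study describes them as microglia, neurons, oligodendrocyte precursor cells and astrocytes that were not infected. Markers of endothelial and mural cells were also found in them. The samples of GFP+ astrocytes in each group are as many as the mice that the study gives for it. Its methods add that both hippocampi of a mouse were handled and sorted separately. The mouse of each sample is not given, and the tests treat samples as independent. Whether the GFP- cells came from the same mice as the WT-GFP astrocytes is not stated, and the tests treat them as separate.

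Levels are read counts on the constitutive regions of each gene, divided by 1 size factor per sample. Samples had 19331876 to 32621917 reads on genes, and 15575 to 31897 genes were detected in each. Fewer than 20000 genes were detected in WT-GFP replicates 1, 2 and 3 and in APP-GFP replicate 2. Below, they are called the libraries of few detected genes. The summed level of 10 astrocyte marker genes was 1301% to 2435% of the mean of GFP- cells in GFP+ samples. Markers of other cells were present at lower levels. Taking WT-GFP first, then APP-GFP and last APP-SOCS3 astrocytes, microglial markers stood at 6.60% to 23.6%, 9.43% to 41.5% and 5.10% to 9.17% of GFP- cells, endothelial markers at 2.14% to 21.0%, 3.22% to 17.5% and 0.624% to 3.58%, and neuronal markers at 18.8% to 39.2%, 26.1% to 55.9% and 16.1% to 33.3%. Oligodendrocyte markers stood at 138% to 245% in 15 GFP+ samples and at 645% in APP-GFP replicate 2. In GFP+ astrocytes of WT-GFP and APP-GFP mice, the neuronal marker *Gad2* was at 0 in every sample, and no other gene of these lists was at 0 throughout a group. In GFP- cells, endothelial markers summed to a median level of 161864, microglial markers to 121774, mural cell markers to 108583 and neuronal markers to 4555. The neuronal percentages thus refer to a low summed level. In bulk samples, fewer cells of a type and less RNA per cell cannot be told apart.

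*App* lies on the minus strand of chromosome 16, from 84954437 to 85173743 of mm10, and encodes forms of 695, 751 and 770 codons, among others. The stretch below is the endogenous mouse sequence around the site cut by β-secretase, read from the transcript with 770 codons. Capitals mark codons 670 and 671, the pair that the Swedish mutations of the transgene change, and the lower case bases that follow encode Aβ. It spans the end of exon 16 of 18 (chr16:84965670-84965726) and the start of exon 17 (chr16:84962794-84962868), both coding.
App: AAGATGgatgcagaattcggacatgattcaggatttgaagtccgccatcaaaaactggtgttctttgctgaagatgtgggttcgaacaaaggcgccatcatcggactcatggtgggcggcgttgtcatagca
Most of the coding sequence of the chimeric transgene is the mouse sequence, so reads of the transgene and of the endogenous gene cannot be told apart in the level of *App*. That level may also include reads of antisense genes (*Gm10791*, *Gm49227*, *Gm49226*) that overlap the span of *App*, since the use of the strand in counting is not stated.

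Levels of *App* in the 7 samples of WT-GFP astrocytes ranged from 1735 to 5624, with a median of 4831. The 4 APP-GFP samples had 3663, 11151, 7780 and 10265. Levels in the 5 APP-SOCS3 samples were 3153, 6011, 2633, 4899 and 2715. Replicates 2, 3 and 4 of APP-GFP were above every other sample of GFP+ astrocytes, while APP-GFP replicate 1 was below 6 of the 7 WT-GFP samples. The lowest WT-GFP sample, replicate 1, was below every other sample of the data, and the other 6 were between 4136 and 5624.

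Whether astrocytes of APP mice differ from WT astrocytes was examined with limma on log2(level + 1) over all genes whose mean reached 10 in one of the groups. Genes were called at the thresholds of the study, a limma *p* value up to 0.05 without adjustment together with a 1.5-fold change. Of the 9 genes, 1 was called (*App*), against 2.23% of the 22969 genes tested (1.66% higher and 0.57% lower in APP-GFP). *App* had a log2 fold change of 0.86 (standard error 0.35, 95% interval 0.11 to 1.61, *p* = 0.0270 by limma), and its exact permutation *p* (2-sided, mean log2 levels) was 0.0424, where the smallest these samples allow is 0.00606. Adjusted over all genes tested (limma, Benjamini-Hochberg), *p* was 0.999, and with this adjustment 0 of the 9 genes and 0.00435% of all genes were called. Levels overlapped between the groups, as they did for all 9 genes, against 0.313% of all genes that did not overlap.

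The call of *App* in APP-GFP astrocytes was lost without APP-GFP replicate 2 (log2 fold change 0.68), 3 (0.85) or 4 (0.72). It was also lost without the 4 libraries of few detected genes (0.54). The marker genes of other cells did not meet the thresholds in this comparison (0 of 10 microglial, 0 of 10 endothelial and 0 of 11 neuronal genes tested). The median log2 fold change over all genes tested was 0.09. By list it was 0.56 for microglia, 0.53 for neurons, 0.40 for oligodendrocytes and 0.64 for oligodendrocyte precursor cells. It was 0.10 for endothelial cells, near that of all genes, −0.02 for astrocytes and −0.08 for mural cells. The 2.31 of perivascular macrophages rests on a list of low levels, which summed to 0 to 472 in WT-GFP and 133 to 528 in APP-GFP samples. The part of these cells in the difference of *App* between APP-GFP and WT-GFP was not tested.

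**Figure D1:**
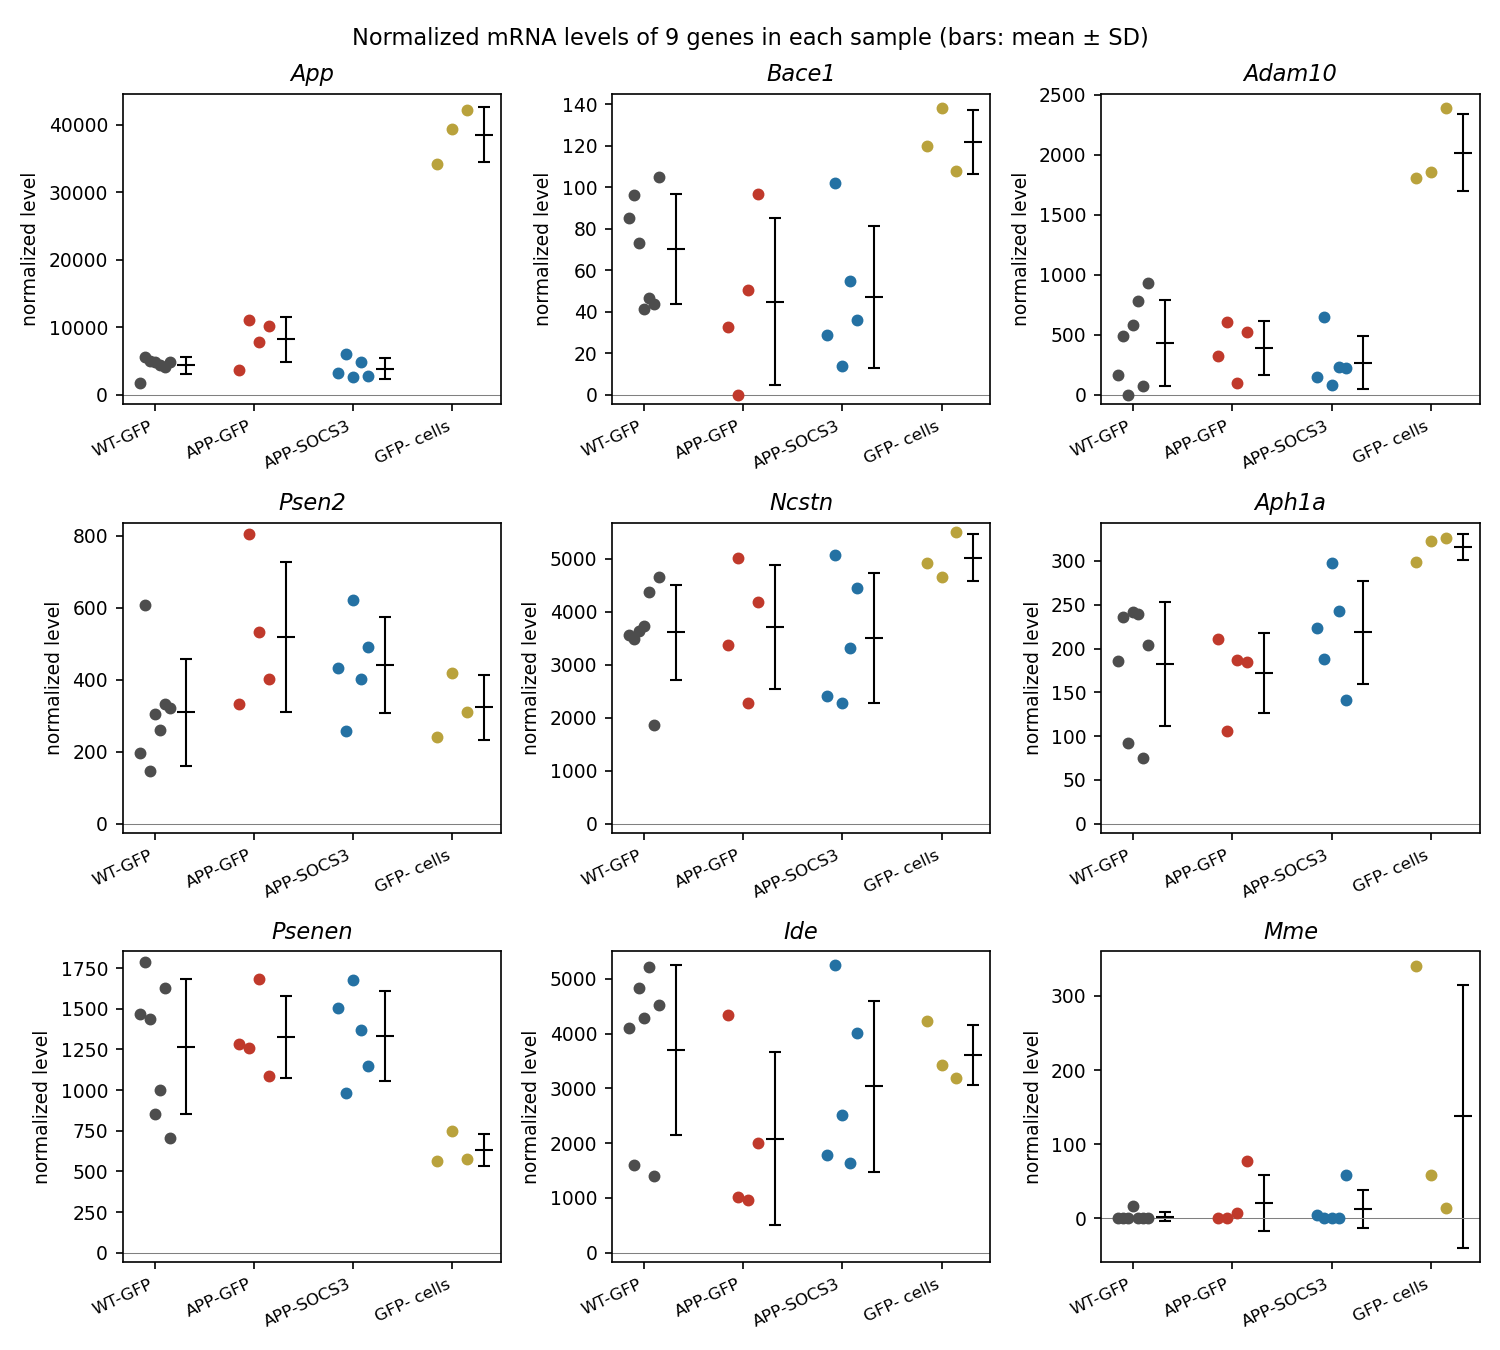
Normalized levels (read counts divided by size factors, linear axes) of the 9 genes in each of the 19 samples. Points are samples and bars are means ± SD; *App* and *Adam10* of GFP- cells lie above every sample of GFP+ astrocytes, and 3 of the 4 APP-GFP samples have the highest *App* levels among astrocytes.

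Whether SOCS3 alters these genes in APP astrocytes was examined in the same way. Of the 9 genes, 1 was called (*App*, lower in APP-SOCS3), against 5.70% of the 22844 genes tested (3.37% lower and 2.33% higher in APP-SOCS3), and 0 were called after adjustment against 0.00438% of all genes. Mean levels were 3882 ± 1502 (SD, n = 5) in APP-SOCS3 and 8215 ± 3353 (SD, n = 4) in APP-GFP astrocytes. This is a log2 fold change of −1.04 (standard error 0.35, 95% interval −1.81 to −0.28) with an adjusted *p* of 0.646 by limma and an exact permutation *p* of 0.0635, where the smallest possible is 0.0159. The groups overlapped, since APP-GFP replicate 1 was below 2 of the APP-SOCS3 samples, and none of the 9 genes was without overlap (2.01% of all genes were). The call held with each sample left out in turn, with log2 fold changes from −1.39 to −0.86.

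Marker genes of other cells moved in the same direction as *App* in this comparison. All 10 microglial and all 10 endothelial markers were called lower in APP-SOCS3 than in APP-GFP astrocytes. So were 4 of 11 neuronal markers, 3 of 8 of mural cells, 3 of 6 of oligodendrocyte precursor cells and 4 of 6 of perivascular macrophages. Only 1 of 7 oligodendrocyte markers and 0 of 10 astrocyte markers were called. Within APP-GFP, replicate 4 combined an *App* level of 10265 with endothelial markers at 3.22% and microglial markers at 12.9% of GFP- cells. Replicate 3, with an *App* level of 7780, had the highest microglial markers of the GFP+ samples (41.5%) and endothelial markers at 10.1%. APP-GFP replicate 2, with the highest *App* level, also had the highest neuronal markers of the GFP+ samples (55.9%), endothelial markers at 17.5% and the highest oligodendrocyte markers (645%). APP-GFP replicate 1, with the lowest *App* level of its group, had the lowest microglial markers of its group (9.43%). The part of these cells in the difference of *App* was not tested.

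**Figure D2:**
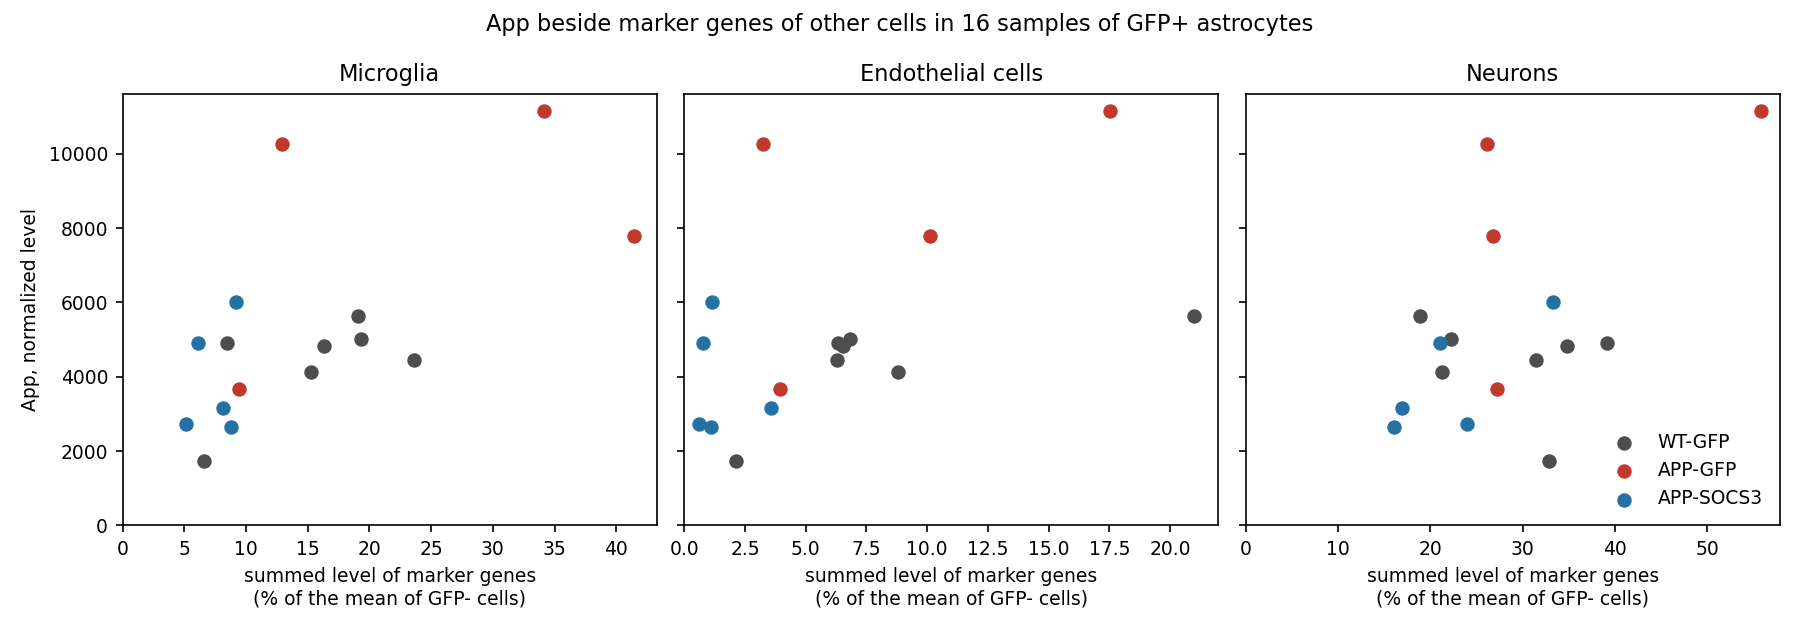
Level of *App* (vertical axis, normalized level) against the summed level of marker genes of microglia, endothelial cells and neurons (horizontal axes, % of the mean of GFP- cells) in the 16 samples of GFP+ astrocytes, coloured by group. APP-GFP samples of high *App* are found at high and at low marker levels, and APP-SOCS3 samples have 5.10% to 9.17% of the microglial markers of GFP- cells.

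When APP-SOCS3 was compared with WT-GFP, 0 of the 9 genes were called (0 at an unadjusted *p* under 0.05 by limma, and 0 by edgeR or DESeq2 on whole reads), against 5.21% of the 22958 genes tested (3.19% higher and 2.02% lower), 5.71% by *p* alone and 0.0305% after adjustment. *App* had a log2 fold change of −0.18 (95% interval −0.81 to 0.45, exact permutation *p* = 0.611). A 1.5-fold higher level in APP-SOCS3 lies outside this interval and a 1.5-fold lower level lies within it. Groups overlapped for all 9 genes (0.566% of all genes did not overlap). This comparison shares its samples with the other 2, so that the 3 are not independent. Taking the 3 comparisons in the order given here, the median log2 fold change was 0.12, −0.10 and 0.12 over the 9 genes and 0.09, 0.08 and 0.19 over all genes tested.

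The secretases that make the first cut had low levels in GFP+ astrocytes. *Bace1* (chromosome 9, from 45838545 to 45862484), which encodes the β-secretase of the amyloidogenic route, ranged from 41.3 to 105 in WT-GFP samples, with a median of 73.0. The APP-GFP samples had 32.6, 0, 50.5 and 96.8, and the APP-SOCS3 samples 28.7, 102, 14.0, 54.9 and 36.0. These levels rest on 0 to 112 reads per sample, and the groups of astrocytes overlapped. The entry of *Bace1* that was not used had mean levels of 1.98 in WT-GFP, 2.72 in APP-GFP and 17.7 in APP-SOCS3 astrocytes, and 8.77 in GFP- cells. From WT-GFP to APP-GFP the log2 fold change of *Bace1* was −1.72 (95% interval −4.13 to 0.69, exact permutation *p* = 0.200), and from APP-GFP to APP-SOCS3 it was 0.96 (−1.84 to 3.76, exact *p* = 0.651). Both values rest on APP-GFP replicate 2, the sample at 0, which is one of the libraries of few detected genes. Without this sample they were −0.27 and −0.49, and without all such libraries the first was −0.0069. By edgeR and DESeq2 on whole reads the first was −0.59 and −0.64.

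*Adam10* (chromosome 9, from 70678995 to 70780227), whose product is the main α-secretase of the brain, varied widely within each group. WT-GFP levels went from 0 in replicate 3 to 927 in replicate 7, with a median of 491. APP-GFP samples had 325, 610, 101 and 522, and APP-SOCS3 samples had 150, 645, 83.0, 231 and 226. High and low samples were found in each group. Its log2 fold change from WT-GFP to APP-GFP was 1.02 by limma and −0.13 by edgeR on whole reads, and −0.69 without the libraries of few detected genes, so that its direction depends on the method. From APP-GFP to APP-SOCS3 it was −0.60 (exact permutation *p* = 0.460).

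None of the 4 γ-secretase subunits was called between groups of astrocytes. *Psen2* (chromosome 1, from 180227006 to 180256302), which encodes a presenilin, the catalytic subunit, had levels of 146 to 609 in WT-GFP, with a median of 306. The APP-GFP samples had 334, 805, 534 and 402, and the APP-SOCS3 samples 433, 258, 622, 403 and 490. All 4 APP-GFP samples and 4 of 5 APP-SOCS3 samples were above 6 of the 7 WT-GFP samples, and WT-GFP replicate 2, at 609, overlapped with both. Relative to WT-GFP, the log2 fold change of *Psen2* was 0.78 in APP-GFP (95% interval −0.10 to 1.67, exact permutation *p* = 0.0667) and 0.58 in APP-SOCS3 (−0.18 to 1.33, exact *p* = 0.116). Without WT-GFP replicate 2 *Psen2* met the thresholds in both, with log2 fold changes of 0.97 and 0.76. Without APP-GFP replicate 2, the highest sample, the difference between APP-GFP and WT-GFP was 0.55, and without all libraries of few detected genes, which include both samples, it was 0.45 and was not called.

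*Ncstn* (chromosome 1, from 172066013 to 172082749), which encodes the substrate receptor of γ-secretase and overlaps *Copa* on the other strand, had mean levels of 3610 ± 893 (SD, n = 7) in WT-GFP, 3709 ± 1164 (n = 4) in APP-GFP and 3502 ± 1228 (n = 5) in APP-SOCS3 astrocytes. *Psenen* (chromosome 7, from 30561868 to 30563184), which encodes PEN-2, had 1267 ± 414, 1327 ± 250 and 1334 ± 276. *Aph1a* (chromosome 3, from 95893921 to 95898592), a scaffold subunit whose gene overlaps *Car14* on the other strand, had 182 ± 70.7, 172 ± 46.0 and 219 ± 58.8. The means of these 3 genes differed by less than the larger SD of the groups compared. The 95% intervals of the log2 fold change between APP-SOCS3 and APP-GFP were −0.44 to 0.44 for *Psenen*, −0.73 to 0.54 for *Ncstn* and −0.42 to 1.11 for *Aph1a*, so that for *Psenen* a 1.5-fold difference lies outside the interval. *Aph1b*, which encodes another APH-1 protein and was not called either, had mean levels of 2397, 2400.1 and 2380, where reads of *Aph1b* may be shared with its close copy *Aph1c*.

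**Figure D3:**
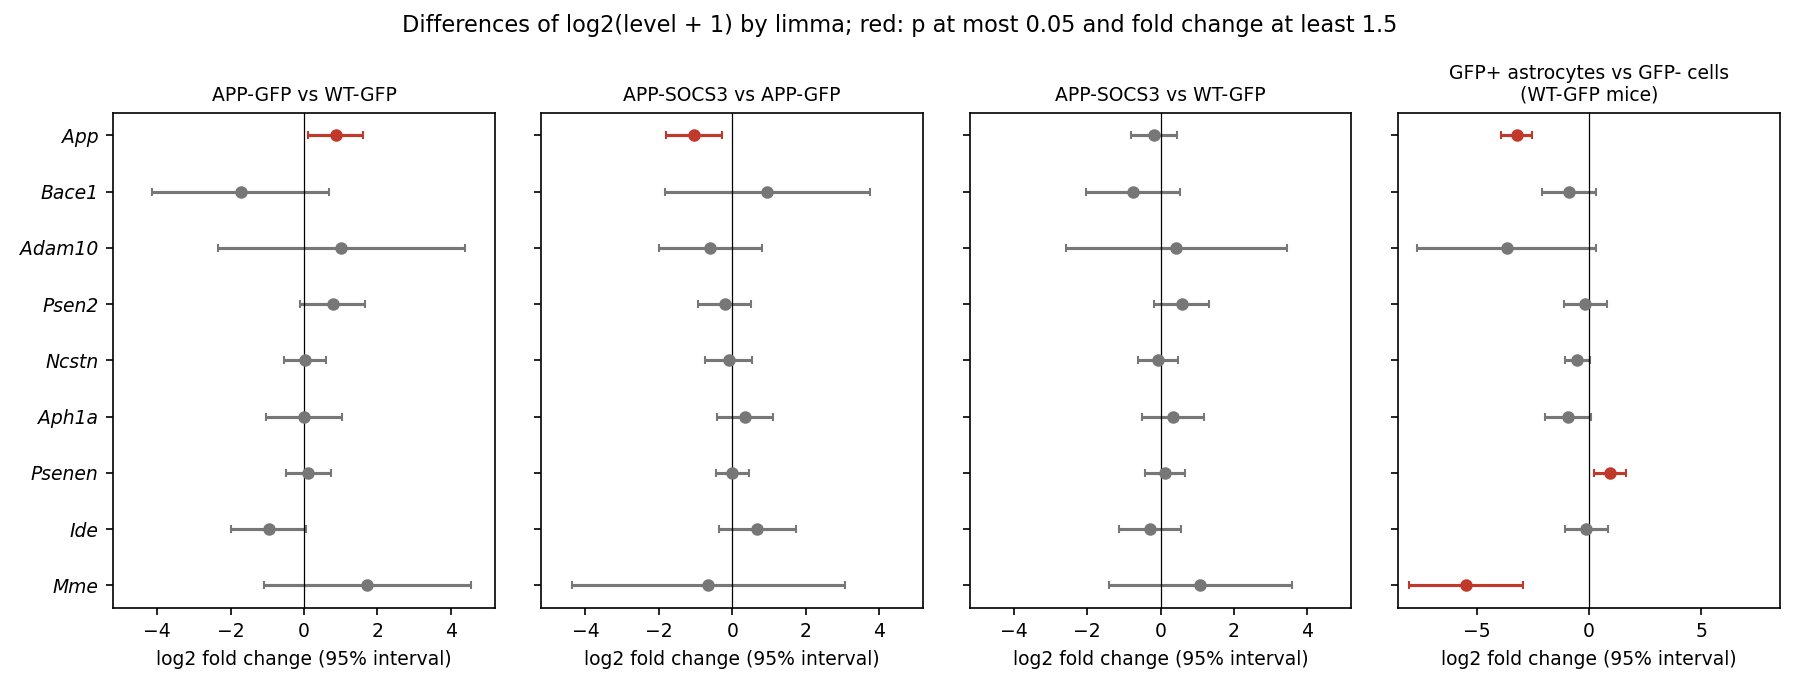
Log2 fold changes of the 9 genes in 4 comparisons (horizontal axes, log2(level + 1) by limma; the axis of the comparison with GFP- cells is wider). Points are estimates and bars are 95% intervals; red marks *App* in 3 panels and *Psenen* and *Mme* in the comparison with GFP- cells, and all other intervals include 0.

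The peptidases differed in level and in spread. *Ide* (chromosome 19, from 37268741 to 37330620) encodes a metalloprotease that degrades insulin and Aβ. Its levels in WT-GFP astrocytes ranged from 1399 to 5211, with a median of 4289.5, and 5 of the 7 samples were between 4107 and 5211 while replicates 2 and 6 were at 1600.0 and 1399. APP-GFP samples had 4337, 1013, 958 and 2009.5, and APP-SOCS3 samples had 1779, 5263, 2509, 1639.8 and 4015. From WT-GFP to APP-GFP the change of *Ide* was −0.96 on the log2 scale (95% interval −1.99 to 0.07, limma *p* = 0.0642, exact permutation *p* = 0.121) and from APP-GFP to APP-SOCS3 it was 0.68 (−0.36 to 1.73, exact *p* = 0.302). Relative to WT-GFP it was −0.28 in APP-SOCS3 (−1.13 to 0.57, exact *p* = 0.553). APP-GFP replicate 1 had the highest level of *Ide* and the lowest level of *App* in its group. Without it *Ide* met the thresholds in both comparisons, with log2 fold changes of −1.41 and 1.13, and without WT-GFP replicate 2 or 6 it did so against WT-GFP (−1.14 and −1.17). Without the libraries of few detected genes the values were −0.77 and 0.43, and neither was called.

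*Mme* (chromosome 3, from 63295435 to 63383713), which encodes the membrane peptidase neprilysin, was at 0 in 6 of 7 WT-GFP, 2 of 4 APP-GFP and 3 of 5 APP-SOCS3 samples. The samples above 0 were WT-GFP replicate 4 at 16.7, APP-GFP replicates 3 and 4 at 6.92 and 76.7, and APP-SOCS3 replicates 1 and 5 at 4.42 and 58.9. At this depth no difference between astrocyte groups was detectable. The exact permutation *p* was 0.388 between APP-GFP and WT-GFP and 0.651 between APP-SOCS3 and APP-GFP.

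GFP+ astrocytes were then compared with GFP- cells, both from WT-GFP mice. Of the 9 genes 3 were called, 2 lower (*App* and *Mme*) and 1 higher (*Psenen*) in GFP+ astrocytes, against 42.8% of the 26709 genes tested (33.5% lower and 9.25% higher). With adjustment over all genes (Benjamini-Hochberg, limma) the same 3 were called, against 31.9% of all genes. All genes tested had a median log2 fold change of −1.31, and it was −0.37 by edgeR and −0.67 by DESeq2 on whole reads. Differences are therefore also given relative to it, and they depend on the method as it does. Relative to −1.31 they were −1.89 for *App*, −2.35 for *Adam10* and −4.17 for *Mme*. They were positive for *Psenen* (2.26), *Ide* (1.21), *Psen2* (1.16), *Ncstn* (0.79), *Bace1* (0.44) and *Aph1a* (0.40). Over the 9 genes the median was −0.87. For 4 genes the groups did not overlap (*App*, *Adam10*, *Aph1a* and *Bace1*, all lower in GFP+ astrocytes), against 34.8% of all genes. Their exact permutation *p* was 0.0167, the smallest these samples allow.

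*App* had levels of 34150, 39355 and 42151 in GFP- cells, and the mean of WT-GFP astrocytes was 11.4% of theirs. All 16 samples of GFP+ astrocytes were below all 3 samples of GFP- cells. By limma the difference was −3.21 on the log2 scale (standard error 0.31, adjusted *p* = 2.27e-05), which is −1.89 relative to the median of all genes. It stayed between −3.39 and −2.71 over 12 alternatives. Neuronal markers in WT-GFP astrocytes stood at 18.8% to 39.2% of GFP- cells, where their summed level was low (median 4555), and microglial markers at 6.60% to 23.6%. The part of RNA from other cells in the astrocyte level of *App* was not tested.

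*Adam10* had levels of 1806, 1859 and 2391 in GFP- cells, 4.69 times the mean of WT-GFP astrocytes. Although the groups did not overlap, it was not called by limma (log2 fold change −3.66, 95% interval −7.63 to 0.30, exact permutation *p* = 0.0167). WT-GFP replicate 3, at 0, decided this, and without it *Adam10* was called (−2.45, adjusted *p* = 0.0318 by limma). *Bace1* had 120, 138 and 108 in GFP- cells, and *Aph1a* had 298, 323 and 326, and neither was called (log2 fold changes −0.87 and −0.92).

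*Psenen* was higher in astrocytes, with levels of 704 to 1789 (median 1434) in WT-GFP astrocytes and of 566, 746 and 579 in GFP- cells. WT-GFP replicate 7, at 704, was below the highest GFP- sample, and the other 6 were above all 3. This difference was 0.94 on the log2 scale (standard error 0.32, exact permutation *p* = 0.0333, adjusted *p* = 0.0414 by limma), which is 2.26 relative to the median of all genes. Without the libraries of few detected genes it was 0.67 and was not called. *Mme* was detected in all 3 samples of GFP- cells, at 341, 58.2 and 14.1, and was lower in astrocytes (log2 fold change −5.48 on the log2(level + 1) scale, adjusted *p* = 0.00451 by limma), although WT-GFP replicate 4 was above the lowest GFP- sample.

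The other 3 genes were not called. *Ncstn* had levels of 4915, 4646 and 5499 in GFP- cells, above 6 of the 7 WT-GFP astrocyte samples (log2 fold change −0.52, 95% interval −1.07 to 0.03). *Psen2* had 241, 420 and 310.2 and *Ide* had 4224, 3427 and 3182, within the range of WT-GFP astrocytes for both genes. Their log2 fold changes were −0.15 (−1.11 to 0.80) and −0.11 (−1.05 to 0.84). By edgeR on whole reads both were positive (0.20 and 0.31), and their direction is not given.

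Divided by length, the levels order the genes within astrocytes. Per kilobase of all annotated exons (GENCODE M21), mean levels in WT-GFP astrocytes (n = 7) were 994 for *Psenen*, 908 for *Ncstn*, 494 for *Ide*, 337 for *App*, 87.6 for *Adam10*, 71.7 for *Psen2*, 52.7 for *Aph1a*, 11.0 for *Bace1* and 0.207 for *Mme*. The ranges of mean ± SD of neighbours in this order overlapped from *Psenen* to *App* and from *Adam10* to *Aph1a*. They did not overlap between *App* and *Adam10*, *Aph1a* and *Bace1*, or *Bace1* and *Mme*. In GFP- cells *App* came first, at 2966 per kilobase, and *Ncstn* followed at 1263. The regions in which the authors counted reads are not given in the files, and per kilobase of exons shared by all coding transcripts *App* came second in astrocytes (1829, after 4011 for *Psenen*), so that the order depends on the length used.

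Other genes of the pathway were examined as a list of 46, grouped by role, of which 42 passed the filter in each comparison between astrocyte groups. Between APP-GFP and WT-GFP 0 were called, against 2.23% of all genes. The groups did not overlap for 1 gene of the 42, against 0.313% of all genes. This was *Sorl1*, which encodes a sorting receptor of APP and is named here after its values were seen, whose mean was 522 ± 24.0 in the 4 APP-GFP samples and 395 ± 67.8 in the 7 samples of WT-GFP (± SD; log2 fold change 0.42, adjusted *p* = 0.999 by limma, exact permutation *p* = 0.00606). Between APP-SOCS3 and APP-GFP 2 of 42 were called, both lower in APP-SOCS3, against 5.70% of all genes called (3.37% lower). *Apbb2*, which encodes a cytoplasmic adaptor that binds the tail of APP, had mean levels of 193 ± 96.8 (SD, n = 5) in APP-SOCS3 and 537 ± 113 (SD, n = 4) in APP-GFP astrocytes. Its groups did not overlap, against 2.01% of all genes, and it was lower by a log2 fold change of −1.61 (standard error 0.40, exact permutation *p* = 0.0159, adjusted *p* = 0.576 by limma). WT-GFP astrocytes had 487 ± 75.7 (SD, n = 7). *Apbb2* was also the 1 gene of the list called between APP-SOCS3 and WT-GFP, against 5.21% of all genes (−1.48, exact *p* = 0.00253, again the smallest possible). GFP- cells had 3014 ± 478 (SD, n = 3). *Plat*, which encodes tissue plasminogen activator, had 1889.6 ± 401 in APP-SOCS3 and 3641 ± 1624 in APP-GFP astrocytes (−0.83, adjusted *p* = 0.681 by limma) and 14985 ± 343 in GFP- cells. Both genes were thus higher in GFP- cells, whose markers were lower in APP-SOCS3 than in APP-GFP astrocytes, and the part of these cells in both differences was not tested.

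In the comparison of GFP+ astrocytes with GFP- cells, 25 of 44 genes of the list were called, 12 higher and 13 lower in astrocytes, against 42.8% of all genes (9.25% higher and 33.5% lower). The median difference of the 44 was −0.42 on the log2 scale. Among the relatives of *App*, *Aplp1* was higher in astrocytes (41490 ± 10665 against 7103 ± 2409, log2 fold change 2.56) and *Aplp2* lower (17499 ± 3750 against 31628 ± 571, −0.88). *Tspan15*, which encodes a tetraspanin that escorts ADAM10 to the cell surface, was higher by 2.96 on the log2 scale (5209 ± 359 against 683 ± 165), while *Tspan14* of the same family was not called (1855 ± 356 against 1327 ± 232). Of membrane proteins that bind APP, *Itm2c* was higher (12018 ± 1398 against 6066 ± 1028, 0.99) and *Itm2b* was not called (50362 ± 6013 against 44616 ± 4656). Among adaptors and sorting proteins 6 of 12 were called, 3 higher and 3 lower, beside the 42.8% of all genes called. *Vps35* (3507 ± 2090 against 6664 ± 724) and *Apbb1* (2075 ± 480 against 1871 ± 288) were not called. The groups of *Vps35* did not overlap (exact permutation *p* = 0.0167), as for 34.8% of all genes. The α-secretases *Adam9* and *Adam17* had lower levels in all astrocyte samples than in GFP- cells, but like *Adam10* they were at 0 in a WT-GFP sample and were not called. Of the Aβ-degrading proteases 10 of 13 were called, 3 higher and 7 lower, beside the 42.8% of all genes called, most of them lower. *Htra1*, which encodes a secreted serine protease, had 63636 ± 8750 in WT-GFP astrocytes and 4413 ± 2382 in GFP- cells (3.97), and the lysosomal protease *Ctsb* had 57606 ± 8363 and 32215 ± 1191 (0.83). *Bace2* and the γ-secretase genes *Aph1b* and *Aph1c* were not called.

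**Figure D4:**
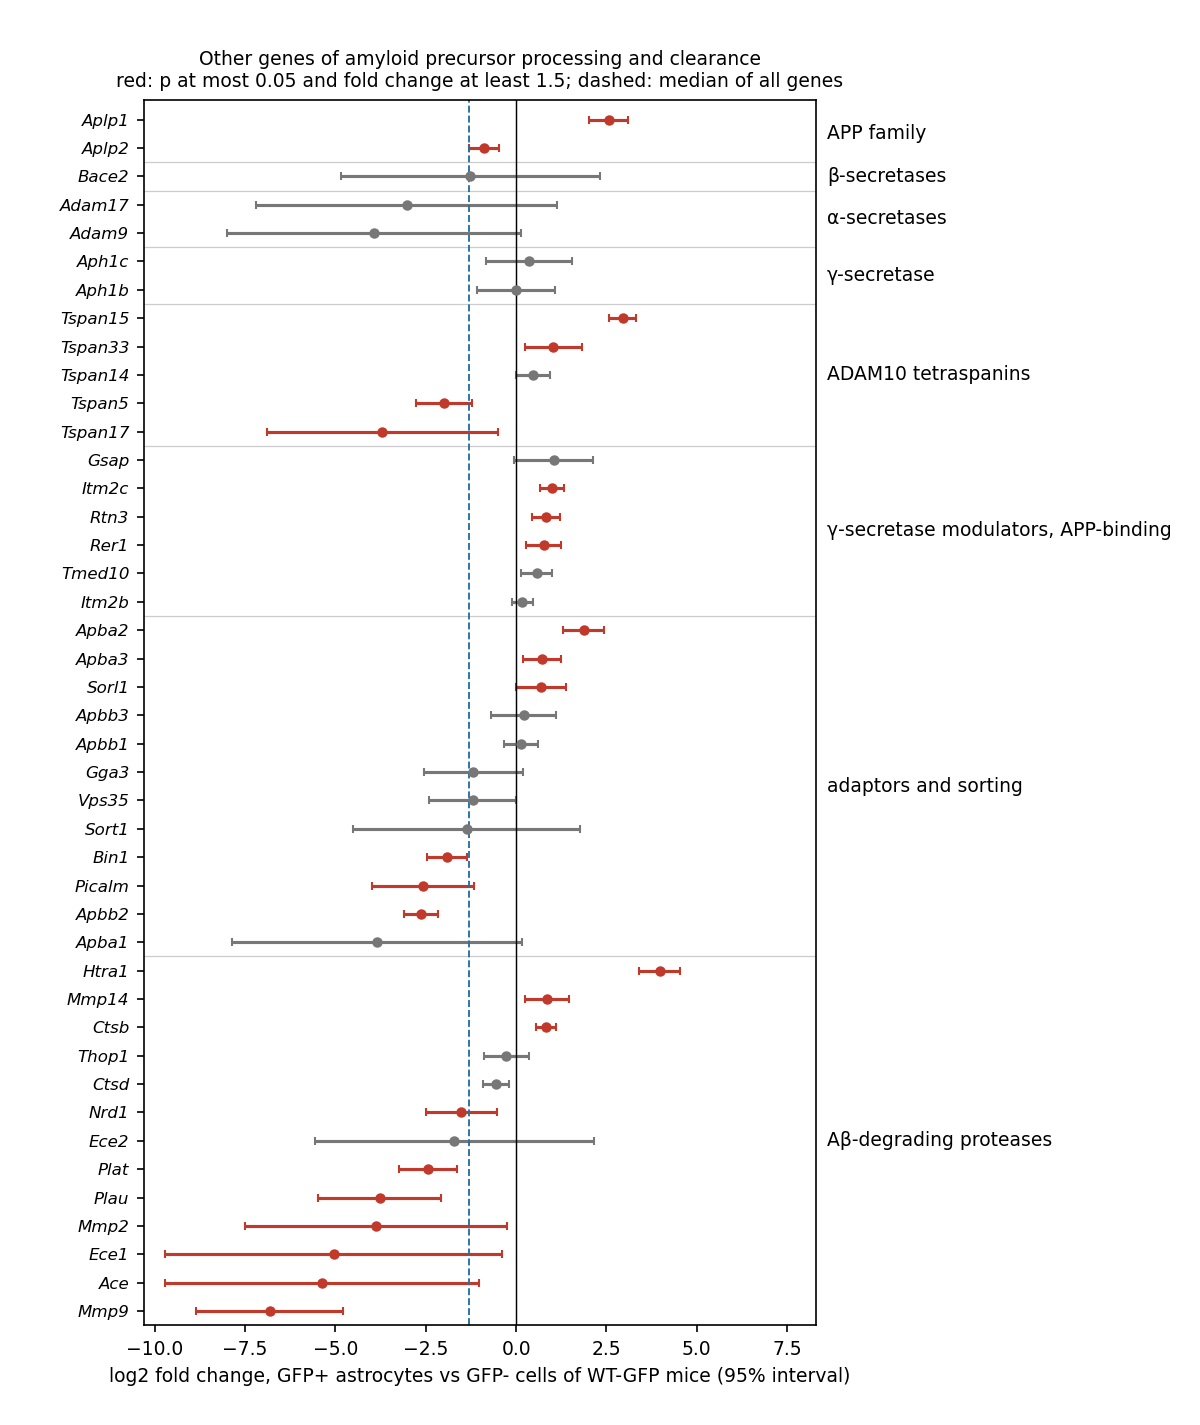
Log2 fold changes (horizontal axis, log2(level + 1) by limma) of the other genes of amyloid precursor processing and clearance that are reported here, between GFP+ astrocytes and GFP- cells of WT-GFP mice, grouped by role. Points are estimates, bars are 95% intervals, red marks the 25 genes called and the dashed line is the median of all genes tested, −1.31; *Htra1*, *Tspan15* and *Aplp1* have the highest values.

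The genes whose levels followed each member most closely over the 16 samples of GFP+ astrocytes were found by Pearson's r of log2 levels among 10237 genes whose mean in these samples was 100 or more. For *App* these were *Grpel2* (r = 0.884), *Man2b1* (0.881), *Ptp4a3* (0.832), *Txnrd1* (0.803) and *Slc2a1* (0.803). The closest gene was *Tmem238* for *Psen2* (0.882), *Rbl2* for *Ncstn* (0.929), *0610010F05Rik* for *Aph1a* (0.902), *Rps15* for *Psenen* (0.936), *Magi1* for *Bace1* (0.939), *Ipo9* for *Adam10* (0.962), *Wac* for *Ide* (0.894) and *Calb1* for *Mme* (0.712). Each is the highest, or for *App* among the highest, of 10237 values of r over 16 samples. How high r would reach by chance was not examined. These values are a description of samples that differ in group, in genes detected and in markers of other cells.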

How the data were processed

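GFP+ astrocytes and GFP- cells were sorted from mouse hippocampi, and 19 samples were grouped by their labels. The authors amplified cDNA (SMARTer kit, Nextera XT libraries), sequenced it, mapped reads to mm10 with STAR 2.4.0 and counted reads on constitutive regions of FAST DB genes. The deposited values are a signal, the read counts divided by DESeq2 size factors. Divided by what 1 read is worth in its sample, 100% of values came out whole (within 0.01 of a read), and these whole reads were used for alternatives only. The use of the strand and of reads matching several genes is not given in the sources used here. Reads amplified by PCR are not independent molecules.

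Log2(level + 1) was tested with limma 3.58.1 (trend, R 4.3.3) on the 2 groups compared, for genes whose mean reached 10 in one of the groups. Calls needed a *p* value up to 0.05 with a 1.5-fold change, and counts with Benjamini-Hochberg adjustment were given beside them. Fold changes are on the log2(level + 1) scale, which can understate changes of low genes and can overstate them where a sample is at 0. Single genes also had 2-sided exact permutation tests. The members and lists were chosen with earlier results of these data known. All 9 genes were described by symbol. From the wider list, genes called between astrocyte groups were named, and against GFP- cells those with the highest mean levels of their role (2 per role, where a role has as many). The marker lists hold 6 to 12 genes each. Alternatives were pseudocounts of 0.1 and 10, no minimum or a minimum of 100, rescaling by sample totals or by upper quartiles, a joint fit of all 19 samples, edgeR 4.0.16 and DESeq2 1.42.0 on whole reads, adjustment, a replicate block and leaving out each sample. Leaving out libraries with fewer than 20000 genes detected was added after the data were seen. Scripts were tested on simulated data. The sequence and exon lengths were read from GENCODE M21 (mm10), where all 9 members were matched by symbol and overlapped their listed positions. Of the wider list, 1 gene is counted in its totals but not reported here. The authors' filter on intergenic background was not used here.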

Additional observations from a re-analysis of the deposited data

Results flagged for a closer look

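A few samples are listed because they lay far from the other samples of its group by Dixon's criterion, applied to 27 groups of 4 to 7 samples. Chance alone marks about 1 in 20 groups in this way, and 7 were marked. *App* was lowest in WT-GFP replicate 1 (1735), and *Ncstn* in WT-GFP replicate 6 (1856). *Psen2* was highest in WT-GFP replicate 2 (609) and *Adam10* in APP-SOCS3 replicate 2 (645). *Mme* was marked in every GFP+ group, where most samples were at or near 0, in WT-GFP replicate 4 (16.7), APP-GFP replicate 4 (76.7) and APP-SOCS3 replicate 5 (58.9).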

How the results depend on the processing

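Of the 9 genes, calls between APP-GFP and WT-GFP were 3 with all 19 samples in one fit (*App*, *Ide* and *Psen2*), 2 with a replicate block (*App* and *Ide*), and 0 with adjustment or without the libraries of few detected genes. They were 0 to 3 with 1 sample left out. Between APP-SOCS3 and APP-GFP they were 0 with adjustment and 1 to 2 with 1 sample left out, and between APP-SOCS3 and WT-GFP 0 to 1. Against GFP- cells they were 5 with equal totals (with *Ncstn* and *Aph1a*) or with all samples in one fit (with *Adam10* and *Aph1a*), and 3 to 4 with 1 sample left out. Over all genes, calls between APP-GFP and WT-GFP were 817 without a minimum, 123 with a minimum of 100, 991 with all samples in one fit and 1 with adjustment. Those between APP-SOCS3 and APP-GFP were 650 with a minimum of 100 and 1 with adjustment, those between APP-SOCS3 and WT-GFP 441 and 7, and against GFP- cells 6709 with a minimum of 100. With 1 sample left out they were 393 to 677, 1052 to 1836, 904 to 1435 and 8838 to 11679. For the replicate block, same-numbered samples did not deviate together (lowest r −0.03, 0.01, −0.08 and −0.02), so the numbers are not taken as pairs. The block gave 663, 1132, 1433 and 10999 calls over all genes. Over single genes, 722 of 802 values kept their direction and side of the thresholds, and 55 changed direction in 14 of 36 results, none of which was called. Between APP-GFP and WT-GFP, *Aph1a* was 0.0056 with equal totals, 0.0028 with equal upper quartiles and 0.17 without the libraries of few genes. *Adam10* was −0.13 by edgeR, −0.14 by DESeq2 and −0.69 without these libraries. *Ncstn* was −0.014 with the block and −0.12 without the libraries, and *Psenen* −0.031 with the block. Between APP-SOCS3 and APP-GFP, without these libraries *Ncstn* was 0.067, *Psen2* 0.029, *Psenen* −0.019 and *Bace1* −0.49. Between APP-SOCS3 and WT-GFP, *Adam10* was −0.023 with a pseudocount of 10, −0.67 by edgeR, −0.69 by DESeq2 and −0.98 without these libraries. Against GFP- cells, *Psen2* was 0.35 with equal upper quartiles and 0.20 by edgeR, and *Ide* 0.39, 0.31 and, by DESeq2, 0.082. With 1 sample left out, values that changed direction ranged as follows. Between APP-GFP and WT-GFP, *Ncstn* was −0.14 to 0.24, *Aph1a* −0.19 to 0.22, *Psenen* −0.0078 to 0.22 and *Adam10* −0.20 to 1.57. Between APP-SOCS3 and APP-GFP, *Ncstn* was −0.31 to 0.067, *Psen2* −0.39 to 0.029, *Mme* −1.71 to 0.67, *Psenen* −0.088 to 0.12 and *Bace1* −0.49 to 1.72. Between APP-SOCS3 and WT-GFP, *Ncstn* was −0.22 to 0.068, *Psenen* −0.0070 to 0.23 and *Adam10* −0.79 to 0.85. Against GFP- cells, *Psen2* was −0.35 to 0.056 and *Ide* −0.22 to 0.10. The cause of these changes was not tested. Depth limits *Bace1* and *Mme*, whose levels rest on few reads.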
